A study of Mus musculus with 32 samples.

Results

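Expression of 9 organic ion transporter genes of the Slc22 family was examined in mouse kidney cortex, the outer layer of the kidney that holds most of the proximal tubules. The members were the rows of the deposited count table named Slc22a2, Slc22a4, Slc22a5, Slc22a6, Slc22a7, Slc22a8, Slc22a12, Slc22a13 and Slc22a19, which are 9 of the 32544 genes in the table, and all 9 passed the filter on low counts in every comparison. The 32 mice were 25 weeks old, carried the Col4a3tm1Dec allele on a C57BL/6J background, and formed 8 groups of 4 defined by sex, genotype and treatment. Controls were Col4a3+/- heterozygotes, so they carry 1 copy of the disrupted allele themselves, and Alport mice were Col4a3-/-, which lack a chain of the collagen IV network of the glomerular basement membrane. Mice ate a purified diet alone (vehicle) or with nicotinamide riboside (NR), a precursor of NAD+, mixed in. The study asked how the Alport genotype changes the kidney and whether NR alters that change in either sex.

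Slc22 proteins are membrane carriers that move small charged molecules across the cells of the proximal tubule. Organic anion transporters such as those of Slc22a6 and Slc22a8 take drugs, toxins and metabolic acids from the blood into the tubule cell. The organic cation transporters do the same for positively charged compounds, and other members recover carnitine and urate from the filtrate. Several are known to differ between the sexes in rodents and to depend on the hepatocyte nuclear factors HNF1 and HNF4 of the tubule.

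Total counts per library ran from 16621944 to 27778797, with a median of 22071395. The targeted gene Col4a3 was between 48.8 and 83.2 counts scaled to library size (CPM) in the Alport mice and between 59.4 and 201 CPM in the controls. These ranges overlapped because NR-treated control males 1 and 3 were at 59.4 and 75.2 CPM. The log2 ratio of Col4a3 to its neighbour Col4a4, which encodes a partner chain, separated the genotypes without overlap, at -1.77 to -1.28 in the Alport mice and -0.90 to -0.28 in the controls. All 10 proximal tubule markers examined (among them Lrp2, Cubn and Slc34a1) were detected in every group, with a summed level of 15500 to 17600 CPM in vehicle-treated control males and 14100 to 17300 CPM in vehicle-treated control females.

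Expressed per kilobase of merged exons, the urate exchanger gene Slc22a12 (Urat1) had the highest level of the 9 members, a mean of 416 CPM per kb over the 32 mice. The organic anion transporter genes Slc22a6 (Oat1) and Slc22a8 (Oat3) followed at 170.5 and 159 CPM per kb. Next came the carnitine transporter gene Slc22a5 (Octn2) at 105.8 CPM per kb, the organic cation transporter gene Slc22a2 (Oct2) at 74.7 CPM per kb and Slc22a13 (Oat10), which encodes an exchanger of urate and small organic acids, at 47.7 CPM per kb. The lowest were Slc22a7 (Oat2) at 26.5 CPM per kb, the ergothioneine and cation transporter gene Slc22a4 (Octn1) at 18.8 CPM per kb, and Slc22a19 (Oat5), a sulphate conjugate transporter gene of rodents, at 8.88 CPM per kb. The order differed between groups. Slc22a8 was above Slc22a6 in every female group. Slc22a7 was at 82.8 CPM per kb in vehicle-treated control females, above Slc22a13 (75.5) and Slc22a2 (60.6), but at 2.63 CPM per kb in NR-treated Alport males.

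The members also differed in how far they varied. The highest of the 32 mice exceeded the lowest 3.4-fold for Slc22a5 and 3.69-fold for Slc22a4, but 57.2-fold for Slc22a19 and 1530-fold for Slc22a7. The top of the Slc22a7 range was a vehicle-treated control female at 229 CPM and the bottom an NR-treated Alport female at 0.15 CPM. That lowest value rests on a count of 4, so the 1530-fold ratio is imprecise.

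**Figure D1:**
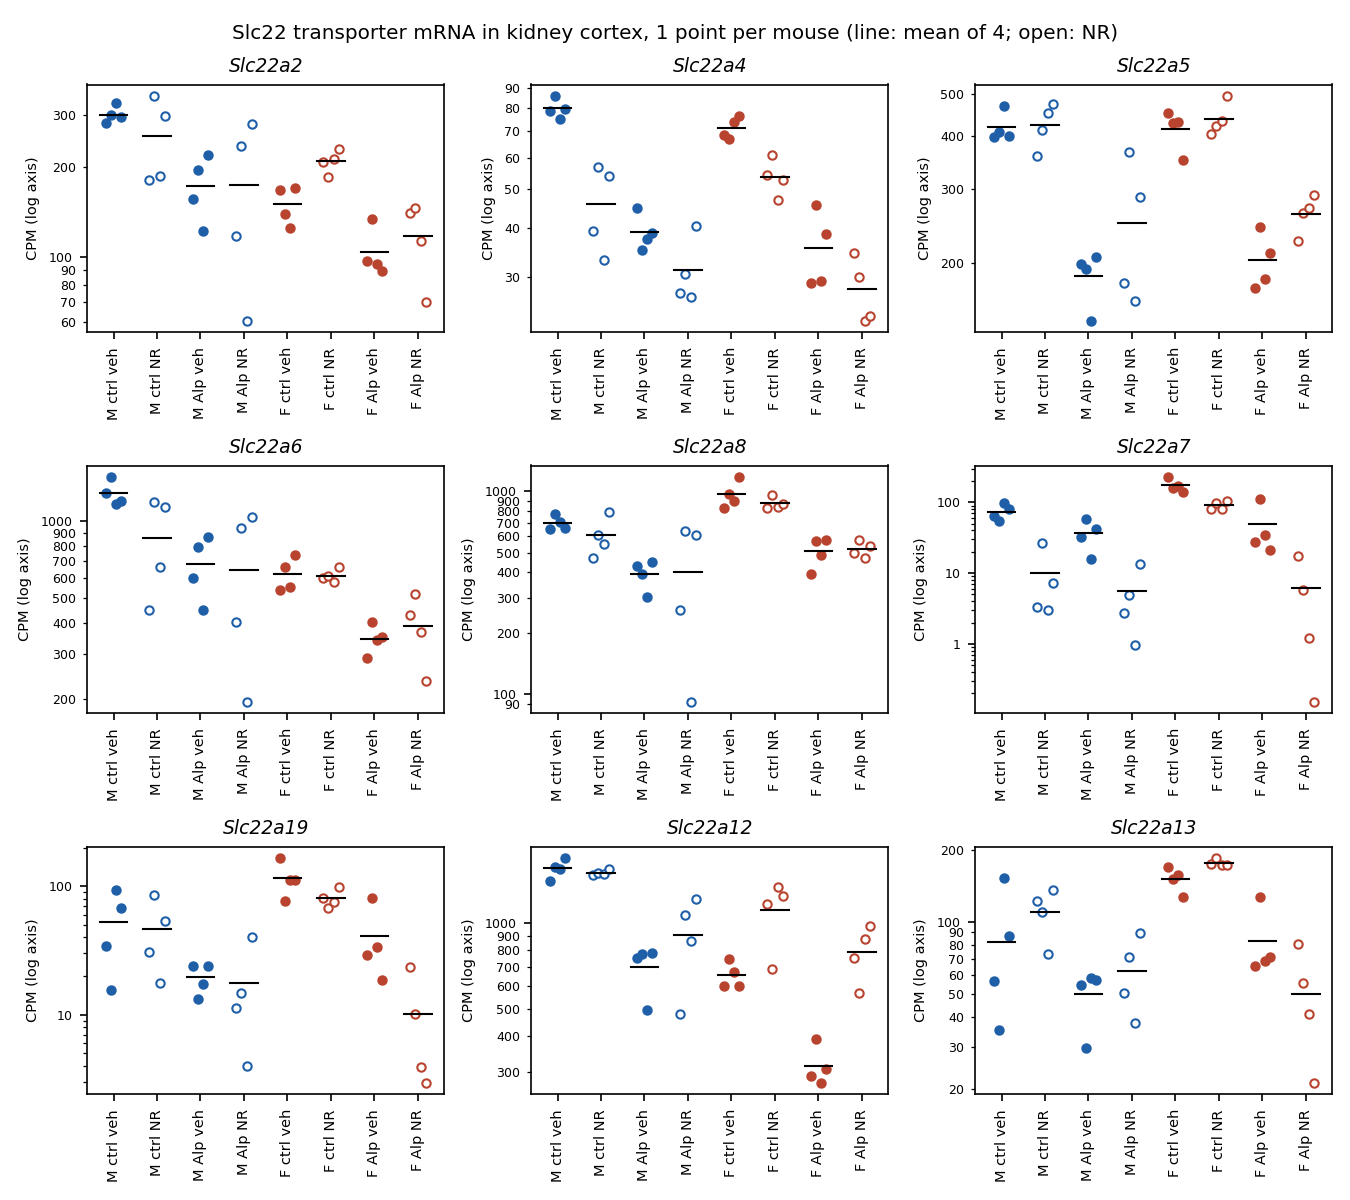
CPM of each of the 9 members on a log axis in the 8 groups, with 1 point per mouse, a line at the mean of 4, males in blue, females in red and NR-treated groups as open points. Slc22a7 spans from 0.15 CPM (a count of 4) to 229 CPM while Slc22a5 stays between 146 and 497 CPM.

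In the mouse genome (GRCm38), 4 members lie on chromosome 19: Slc22a12 at chr19:6535845-6543032 on the minus strand, Slc22a19 at chr19:7673061-7711310 on the minus strand, and Slc22a8 (chr19:8591254-8611835) and Slc22a6 (chr19:8618039-8628299) as neighbours on the plus strand, 6203 bp apart. Slc22a2 is at chr17:12584132-12628488 (plus strand), Slc22a7 at chr17:46432183-46438457 (minus strand) and Slc22a13 at chr9:119192974-119209098 (minus strand). The carnitine transporter family genes Slc22a5 (chr11:53864542-53891660) and Slc22a4 (chr11:53983123-54028090), both on the minus strand, flank another gene of the family, Slc22a21. Part of the sequence of some members is shared with other genes, and how shared reads were counted is not given in the sources used here. Of the distinct 50-base stretches in member transcripts, 36.0% of those of Slc22a13 also occurred in its pseudogene Slc22a13b-ps, which was at 0 to 0.729 CPM. For Slc22a5 26.3% were shared, nearly all with Slc22a21 at 3 to 11.5 CPM, and for Slc22a12 27.4% lay in Nrxn2 on the opposite strand at 17.3 to 57.6 CPM. The values of these 3 genes are uncertain for that reason, by an amount that was not measured and that these shares do not give. Slc22a6 and Slc22a7 shared none.

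The start regions of Slc22a6 and Slc22a8 are shown because these adjacent genes differed between the sexes in opposite directions (below). In each, 250 bases before to 50 bases after the RefSeq start site (GRCm38.p6), the letters GTTAAT (the core of an HNF1 site, in capitals) occurred once on the gene's own strand, at -56 in Slc22a6 (chr19:8617746-8618045) and at -81 in Slc22a8 (chr19:8592932-8593231).
Slc22a6: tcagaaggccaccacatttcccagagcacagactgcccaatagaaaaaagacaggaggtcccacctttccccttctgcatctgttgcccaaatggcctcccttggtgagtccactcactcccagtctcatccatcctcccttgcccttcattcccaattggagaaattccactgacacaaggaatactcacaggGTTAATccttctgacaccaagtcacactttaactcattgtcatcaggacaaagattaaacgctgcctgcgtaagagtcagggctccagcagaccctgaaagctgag
Slc22a8: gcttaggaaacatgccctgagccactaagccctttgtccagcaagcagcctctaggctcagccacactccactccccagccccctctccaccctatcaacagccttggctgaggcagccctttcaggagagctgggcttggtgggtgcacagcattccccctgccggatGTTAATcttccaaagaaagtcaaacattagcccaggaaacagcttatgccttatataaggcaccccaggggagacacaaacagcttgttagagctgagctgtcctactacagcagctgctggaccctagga
A match to GTTAAT on either strand was present in 7.1% of the 32851 promoters of this length, so such a match is a description of the letters only. The other 6 members with a promoter entry held no GTTAAT. Slc22a12 was one of them, and its start region (chr19:6543021-6543320, minus strand) is shown because it had the highest level and was the member that rose with NR in females of both genotypes.
Slc22a12: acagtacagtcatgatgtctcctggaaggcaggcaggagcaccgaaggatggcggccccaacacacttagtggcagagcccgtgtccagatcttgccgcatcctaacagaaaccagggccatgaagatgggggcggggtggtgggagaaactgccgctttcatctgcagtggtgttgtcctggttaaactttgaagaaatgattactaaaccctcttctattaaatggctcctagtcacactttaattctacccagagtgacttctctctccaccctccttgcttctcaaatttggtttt
None of the 8 regions held the exact letters of the full HNF1 palindrome, the direct repeat element DR1 that HNF4 binds, or the shorter AGGTCA it contains. On either strand 0.00913%, 0.0396% and 16.3% of promoters hold these. Variants of these letters were not searched, so their absence does not show that a region lacks HNF1 or HNF4 sites. AGAACA, the core of an androgen receptor site, present in 19.0% of promoters, occurred once, in Slc22a19 at -170 on the opposite strand.

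Alport mice had lower levels of most of the 9 Slc22 members than controls in both sexes. Among vehicle-treated males 8 of 9 members fell (edgeR quasi-likelihood test, Benjamini-Hochberg adjusted p under 0.05), where 24.2% of the 15286 genes tested fell. In females 9 of 9 fell, against 21.8% of 15709 genes. The members were chosen with earlier results of these data known, so these shares describe them and are not an independent comparison with all genes. In 1 fit of all 32 mice 6 members were called in each sex, and the female calls of Slc22a2, Slc22a6 and Slc22a13 were lost (adjusted p of 0.0504 to 0.163). The median log2 fold change of the members was -0.91 in males and -0.96 in females, and that of all genes tested was 0 in both. The 4 Alport mice lay below the 4 controls for 6 members in males and 7 in females, an arrangement seen for 28.5% and 23.7% of genes.

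Of the cation and carnitine transporters, Slc22a5 was at 397, 408, 471 and 400 CPM in control males and at 199, 194, 146 and 208 CPM in Alport males. In females it was at 453, 428, 431 and 350 CPM in controls and at 175, 243, 184 and 212 CPM in Alport mice. The groups did not overlap in either sex, with a log2 fold change of -1.08 ± 0.11 (SE, adjusted p = 1.26e-05) in males and -0.99 ± 0.12 (adjusted p = 0.000156) in females. Slc22a4 fell by nearly the same amount, from 75.1 to 85.9 CPM in control males to 35.3 to 44.8 CPM in Alport males (-0.95 ± 0.09, adjusted p = 4.45e-06) and from 66.9 to 76.2 CPM to 29.0 to 45.5 CPM in females (-0.96 ± 0.14, adjusted p = 0.000351). Slc22a2, the basolateral entry route for organic cations, fell less: -0.71 ± 0.15 in males (adjusted p = 0.00205), where the groups were apart, and -0.50 ± 0.14 in females (adjusted p = 0.0137), where Alport female 2 at 133 CPM lay within the control range of 125 to 170 CPM.

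Slc22a6 and Slc22a8, which encode basolateral anion transporters, fell together. Slc22a6 was at 1291, 1492, 1164 and 1196 CPM in control males and at 601, 793, 448 and 867 CPM in Alport males, without overlap (-0.84 ± 0.18, adjusted p = 0.00234). In females it was at 538 to 735 CPM in controls and 290 to 404 CPM in Alport mice (-0.80 ± 0.13, adjusted p = 0.00065). Slc22a8 was lower in Alport mice by 0.75 ± 0.12 on the log2 scale in males and 0.90 ± 0.15 in females, with adjusted p-values of 0.000374 and 0.000751 and no overlap in either sex. Slc22a7, which carries nucleotides and other anions, fell most in females, 3.47-fold: controls were at 229, 160, 169 and 138 CPM and Alport females at 27.7, 112, 34.1 and 21.0 CPM (log2 fold change -1.79 ± 0.46, adjusted p = 0.00849). Without Alport female 2 the fall was 6.19-fold. In males Slc22a7 was at 64.3, 53.5, 96.4 and 80.2 CPM in controls and at 32.0, 58.1, 15.8 and 42.0 CPM in Alport mice, so Alport male 2 overlapped the controls (-0.91 ± 0.31, adjusted p = 0.0271). That call was lost without Alport male 1, control male 3 or control male 4, with adjusted p up to 0.0782, and in 1 fit of all 32 mice and by DESeq2, with adjusted p up to 0.25. Slc22a19 fell 2.52-fold in males (-1.33 ± 0.43, adjusted p = 0.0205) and 2.8-fold in females (-1.48 ± 0.40, adjusted p = 0.0111), with overlap in both, and 4.24-fold in females without Alport female 2. Its male call was lost without Alport male 2, control male 3 or control male 4 (adjusted p up to 0.0756), by limma-voom and in 1 fit of all 32 mice (adjusted p up to 0.0823).

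Slc22a12, which returns urate from the filtrate to the tubule cell, was at 1408, 1570, 1549 and 1693 CPM in control males and at 753, 781, 494 and 782 CPM in Alport males. In females it was at 601, 744, 671 and 599 CPM in controls and at 289, 391, 273 and 306 CPM in Alport mice. The groups were apart in both sexes, and the fall was 2.09-fold in males and 2.02-fold in females (adjusted p = 0.000104 and 0.000163). Slc22a13 fell in females (-0.83 ± 0.20, adjusted p = 0.00614). In males its controls were scattered, at 56.2, 35.1, 152 and 86.9 CPM, and the log2 fold change of -0.64 ± 0.36 did not pass (adjusted p = 0.163). Without control male 2, the lowest control, the adjusted p was 0.0305.

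The interaction of sex and genotype, called at an adjusted p under 0.05 where the estimated difference was also over 2-fold, was called for 0 of 9 members and 0.285% of genes. The widest difference was for Slc22a7 (log2 -0.90, female effect minus male effect, adjusted p = 0.634). None of the 9 had an unadjusted p under 0.05. In simulated data this rule recovered 33 of 100 genes changed 2-fold and 84 of 100 changed 4-fold. The 2-fold limit by itself leaves out 2-fold genes whose estimate falls short of it. The changed genes were drawn at random from all genes that passed the filter, so these rates are not those of the members.

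**Figure D2:**
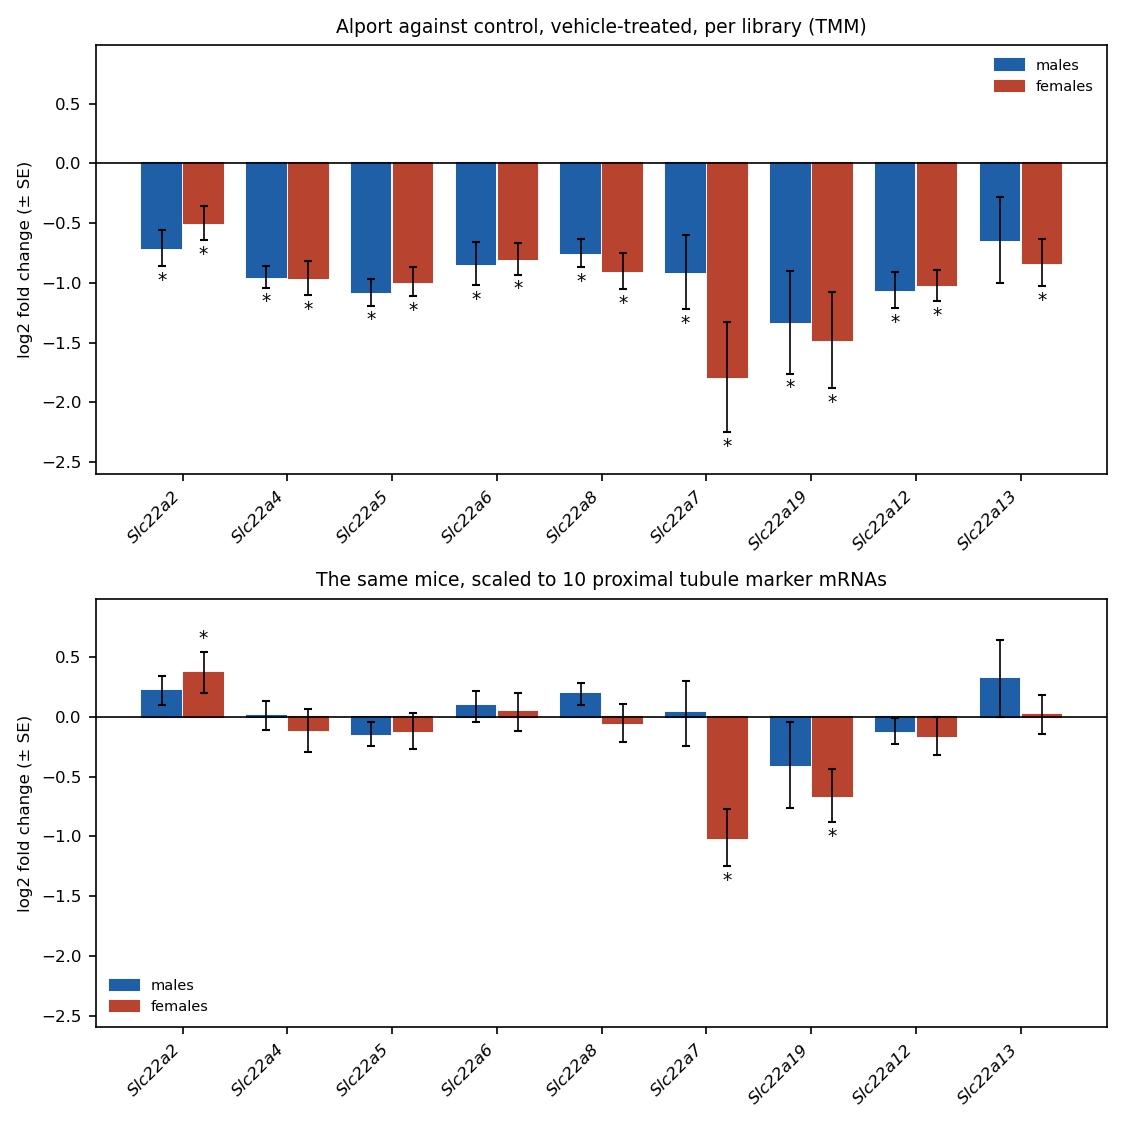
Log2 fold change of Alport against control on vehicle (± SE) for the 9 members in males and females, scaled by library size in the upper panel and to the mean of 10 proximal tubule markers in the lower panel, with * for adjusted p under 0.05. All values in the upper panel are below 0, while the lower panel holds values between -1.01 and 0.37 with 3 calls, all in females.

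Other gene lists moved beside the members. All 10 proximal tubule markers fell in both sexes, with a median log2 fold change of -0.94 in males and -0.87 in females, and their summed level was 6120 to 9350 CPM in Alport males and 6320 to 9850 CPM in Alport females, below every control on the same diet. All 5 injured tubule markers (Havcr1, Lcn2, Vcam1, Spp1 and Krt20) rose, with a summed level of 523 to 664 CPM in control males against 6100 to 7400 CPM in Alport males and of 1400 to 1950 CPM against 7350 to 11700 CPM in females. Of 6 immune cell markers 6 rose in males and 4 in females, and 6 of 6 fibroblast markers rose in both. Podocyte markers rose too, 4 of 4 in males (summed 514 to 795 against 258 to 327 CPM) and 3 of 4 in females (558 to 672 against 415 to 439 CPM), and so did 3 of 4 endothelial markers in each sex. Of 6 loop and distal nephron markers 3 fell in each sex, Slc12a3, Calb1 and Atp6v1b1, so lower levels were not confined to proximal tubule genes. In bulk tissue, fewer proximal tubule cells and less transporter RNA per cell cannot be told apart.

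The members were therefore also scaled to the 10 proximal tubule markers, which moved the median of all genes to 0.96 in males and 0.89 in females. On this scale 0 of 9 members were called in males, against 89.4% of all genes in either direction, none of the 9 had an unadjusted p under 0.05, and their values ran from -0.40 (Slc22a19) to 0.32. In females 3 of 9 were called, against 84.8% of genes. Slc22a7 and Slc22a19 were lower relative to the markers, by 1.01 ± 0.24 and 0.66 ± 0.22 on the log2 scale (adjusted p = 0.000258 and 0.00716), a direction in which 0.497% of genes were called. Slc22a7 was at -1.60 there without Alport female 2. Slc22a2 was higher relative to the markers by 0.37 ± 0.17 (adjusted p = 0.0393), a direction shared with 84.3% of genes, and this call was lost in 5 of 8 fits without 1 mouse.

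Genes that work with the members were lower as well. Of 16 partner transporters, which supply the exchange gradients or carry the solutes out into the urine, 11 fell in males and 13 fell in females, where 1 rose. Slc13a2, which encodes a carrier of dicarboxylates in the brush border, fell by 0.81 in males and 1.11 in females on the log2 scale. Slc13a3, which supplies the dicarboxylate that the anion transporters exchange, fell by 1.15 in males, and the urate transporter gene Slc2a9 fell by 1.05 in males. Of 8 scaffold and regulator genes 7 fell in each sex. Among them were Hnf4a (-0.83 in males, -0.81 in females), the transcription factor named above, and Pdzk1 (-0.94 and -0.96), a scaffold that holds urate and carnitine transporters at the brush border.

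The transporters of control mice differed by sex in both directions. On vehicle 6 of 9 members were called, against 31.7% of genes. Of these, 3 members were higher in males, where 15.8% of the 14990 genes tested were, and 3 were lower, where 15.9% of genes were. Slc22a12 was at 1408 to 1693 CPM in males and 599 to 744 CPM in females (log2 difference 1.22 ± 0.09, male against female, adjusted p = 2.23e-06). Slc22a6, at 1164 to 1492 CPM in males and 538 to 735 CPM in females, was higher in males by 1.02 ± 0.11 (adjusted p = 6.11e-05). Slc22a2 was higher in males by 0.98 ± 0.10 (adjusted p = 2.77e-05). None of these 3 overlapped between the sexes, an arrangement with males above seen for 18% of genes.

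The direction was opposite for the neighbour of Slc22a6. Slc22a8 was at 653, 777, 707 and 664 CPM in control males and at 831, 966, 896 and 1181 CPM in control females (-0.49 ± 0.11, adjusted p = 0.0044), so all 4 males were below all 4 females. Slc22a7 was likewise lower in males (-1.27 ± 0.18, adjusted p = 0.000353), at 53.5 to 96.4 CPM against 138 to 229 CPM. Males below females without overlap was seen for 14.2% of genes. In 1 fit of all 32 mice neither was called (adjusted p = 0.313 for Slc22a8 and 0.228 for Slc22a7). Slc22a19 was lower in males with overlap (-1.18 ± 0.42, adjusted p = 0.0486), a call that was lost in 6 of 8 fits without 1 mouse (adjusted p up to 0.121). Slc22a13 (-0.90), Slc22a4 (0.14) and Slc22a5 (-0.01) did not pass, with adjusted p of 0.0552 for Slc22a13.

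In vehicle-treated Alport mice 2 of 9 members were called, against 3.84% of genes. Both were higher in males, against 2.03% of the 15791 genes tested, and none was lower, against 1.81%. Slc22a12 was at 494 to 782 CPM in males and 273 to 391 CPM in females (1.16 ± 0.17, adjusted p = 0.00546), close in size to the difference among controls. Slc22a6 was higher by 0.97 ± 0.20 (adjusted p = 0.0248), and this call was lost in 6 of 8 fits without 1 mouse (adjusted p up to 0.0749) and in 1 fit of all 32 mice (adjusted p = 0.152). The values of the others were 0.75 for Slc22a2 (adjusted p = 0.0556), -0.36 for Slc22a8, -0.74 for Slc22a13, -1.05 for Slc22a19, -0.40 for Slc22a7, 0.14 for Slc22a4 and -0.12 for Slc22a5. These comparisons use the same vehicle-treated mice as the comparison of genotypes.

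**Figure D3:**
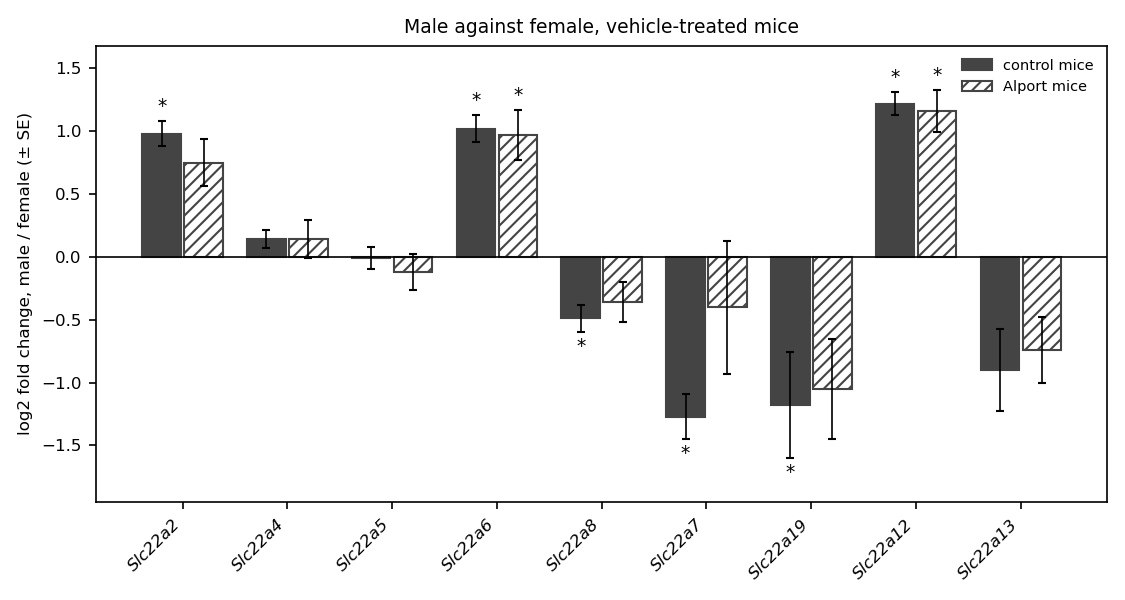
Log2 difference of males against females on vehicle (± SE) for the 9 members in control and Alport mice, with * for adjusted p under 0.05. Slc22a12, Slc22a6 and Slc22a2 lie above 0 and Slc22a7, Slc22a8, Slc22a13 and Slc22a19 below 0 in both genotypes.

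On NR the transporters called were Slc22a4, Slc22a7, Slc22a2 and Slc22a12, each in 1 or 2 of the 4 combinations of sex and genotype. In control females 4 of 9 members were called against 6.18% of the 14951 genes tested, in control males 2 of 9 against 4.53% of 14696 genes, in Alport females 1 of 9 against 0.477% of 15712 genes, and in Alport males 0 of 9 against 0% of 15500 genes. In Alport males 785 genes and 1 member, Slc22a7, had an unadjusted p under 0.05, and other tools called 0 genes (limma-voom) and 62 genes (DESeq2). In control females 2 members rose and 2 fell, against 3.91% and 2.27% of genes, and in 1 fit of all 32 mice none of these 4 was called (adjusted p of 0.184 to 0.642). In control males both called members fell, against 1.46% of genes, and 0 rose, against 3.07%. The 4 comparisons use separate mice.

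The organic anion transporter gene Slc22a7 was lower on NR in all 4 strata. In control females it went from 229, 160, 169 and 138 CPM on vehicle to 80.0, 97.4, 80.0 and 105 CPM on NR (-0.95 ± 0.14, adjusted p = 0.00322). In control males it went from 64.3, 53.5, 96.4 and 80.2 CPM to 3.29, 26.8, 3.02 and 7.35 CPM, a fall of 7.31-fold (-2.87 ± 0.59, adjusted p = 0.0291), or 15.9-fold without NR-treated male 2. In Alport females it was at 27.7, 112, 34.1 and 21.0 CPM on vehicle and at 17.5, 5.79, 1.19 and 0.15 CPM on NR (-3.00 ± 0.96, adjusted p = 0.188). In Alport males it was at 32.0, 58.1, 15.8 and 42.0 CPM on vehicle and at 2.73, 4.93, 0.966 and 13.5 CPM on NR (-2.75 ± 0.70, adjusted p = 0.735). All 4 NR-treated mice lay below all 4 vehicle-treated mice in each stratum. That order was seen for 6.03% of genes in control females, 6.01% in control males, 4.05% in Alport females and 1.45% in Alport males. The 2 calls were in the controls, and the call in control males was lost in 6 of 8 fits without 1 mouse (adjusted p up to 0.0802). The call in control females was kept in every fit without 1 mouse (adjusted p up to 0.0173) but not in 1 fit of all 32 mice, where Slc22a7 was called in Alport females instead (adjusted p = 0.0433).

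Slc22a4 moved the same way in controls. It was at 78.7, 85.9, 75.1 and 79.5 CPM in vehicle-treated control males and at 39.3, 56.8, 33.3 and 54.0 CPM on NR (-0.79 ± 0.15, adjusted p = 0.0223), and at 66.9 to 76.2 CPM and 46.9 to 60.9 CPM in control females (-0.42 ± 0.08, adjusted p = 0.0126). Neither pair of groups overlapped. The male call was lost without NR-treated male 1 or without vehicle-treated male 1, 2 or 4 (adjusted p up to 0.0752). In Alport mice the log2 fold changes were -0.33 in males and -0.34 in females, neither called.

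Slc22a12, the urate exchanger gene, rose on NR in females of both genotypes. In Alport females it was at 289, 391, 273 and 306 CPM on vehicle and at 753, 566, 878 and 972 CPM on NR, without overlap, a rise of 2.53-fold (1.34 ± 0.19, adjusted p = 0.0147). A rise was called for 0.388% of genes in that comparison. In control females it was at 601, 744, 671 and 599 CPM on vehicle and at 1163, 687, 1338 and 1243 CPM on NR (0.75 ± 0.17, adjusted p = 0.0246), with NR-treated female 2 inside the vehicle range. In Alport males it was at 753, 781, 494 and 782 CPM on vehicle. On NR they were at 478, 1063, 865 and 1217 CPM, all but NR-treated male 1 above every vehicle-treated male (0.36). In control males it was at 1408 to 1693 CPM on vehicle and 1474 to 1540 CPM on NR (-0.04). Neither male comparison was called. The Alport female call was lost without NR-treated female 3 or without vehicle-treated female 1, 3 or 4 (adjusted p up to 0.0728). The control female call was lost in 5 of 8 fits without 1 mouse (adjusted p up to 0.0702).

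Among the remaining members Slc22a2 rose in control females, from 125 to 170 CPM on vehicle to 185 to 231 CPM on NR (0.47 ± 0.10, adjusted p = 0.0217), a call lost without NR-treated female 1, 3 or 4 or vehicle-treated female 2 (adjusted p up to 0.0608). In control males its value was -0.24 and not called. Slc22a19 had log2 fold changes of -2.01 in Alport females (adjusted p = 0.193), -0.54 in control females (adjusted p = 0.105), -0.17 in Alport males and -0.16 in control males. In Alport females that corresponds to 29.2, 81.6, 33.5 and 18.5 CPM on vehicle and 23.7, 10.2, 3.94 and 2.92 CPM on NR, with overlap. Slc22a13 was at -0.74 in Alport females, 0.21 in control females, 0.32 in Alport males and 0.42 in control males, and Slc22a5 was at 0.37 in Alport females and 0.41 in Alport males, none called.

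Other values moved with NR in some groups. In control males 4 of 5 injured tubule markers rose on NR, and their summed level was 719 to 1810 CPM against 523 to 664 CPM on vehicle. All 4 endothelial markers rose there (summed 233 to 277 against 168 to 182 CPM), as did 3 of 6 fibroblast markers (130 to 195 against 97.4 to 113 CPM), while the summed proximal tubule markers were at 11200 to 15500 CPM against 15500 to 17600 CPM. In NR-treated Alport males these proximal tubule sums ran from 3720 to 11700 CPM, with males 1 and 3 the lowest. The same males 1 and 3 had the lowest Slc22a8, at 260 and 91.5 CPM, beside 639 and 613 CPM in males 2 and 4. The part of these markers in the NR results was not tested. Using the NR-treated control males 2 and 4 alone, whose Col4a3 was above the Alport range, a choice made after seeing the data, Slc22a4 was still called (-0.53, adjusted p = 0.046) and Slc22a7 was at -2.13 (adjusted p = 0.0878).

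**Figure D4:**
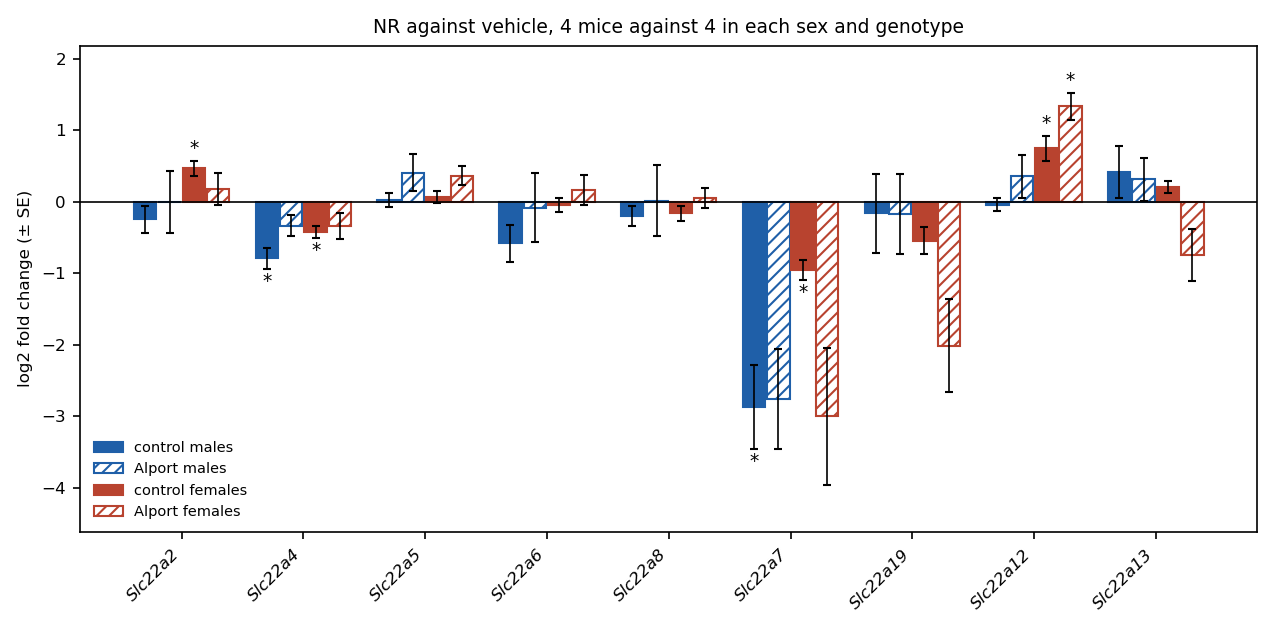
Log2 fold change of NR against vehicle (± SE) for the 9 members in control and Alport males and females, with * for adjusted p under 0.05. Slc22a7 is below 0 in all 4 strata, between -3.00 and -0.95, and Slc22a12 is at 1.34 in Alport females and 0.75 in control females.

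With edgeR, no difference between these effects was called for any member, and in control mice DESeq2 and limma-voom each called 1 member for the interaction of NR and sex. The interaction of NR and genotype passed for 0 of 9 members and 0% of genes in each sex. In females 3 members had an unadjusted p under 0.05 there, among them Slc22a7 (-2.07, Alport effect minus control effect, adjusted p = 0.51), and in males none did. The other tools called 20 genes (DESeq2) and 0 genes (limma-voom) in males and 30 and 0 genes in females. Added after seeing the data, the interaction of NR and sex was tested as female effect minus male effect. In controls it passed for 0 of 9 members and 0.683% of genes, with 4 members at an unadjusted p under 0.05. Slc22a12 was at 0.81 (adjusted p = 0.0789, and 0.0116 by DESeq2), Slc22a7 at 1.94 (adjusted p = 0.132, and 0.0378 by limma-voom) and Slc22a2 at 0.72 (adjusted p = 0.146). In Alport mice it passed for 0 of 9 members and 0% of genes, with 1 member at an unadjusted p under 0.05, Slc22a12 at 0.95 (adjusted p = 1). There limma-voom called 0 genes and DESeq2 called 1.

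NR-treated Alport mice were also set against vehicle-treated controls, which share mice with the comparisons above. In females 7 of 9 members were lower, against 11.6% of the 15381 genes tested, and in males 2 of 9, against 6.81% of 15077 genes. In each sex the 4 NR-treated Alport mice lay below the 4 controls for 7 of 9 members, an order seen for 14.6% of genes in females and 17.8% in males, and all 9 male log2 fold changes were negative. The male count was 8 in 1 fit of all 32 mice and 4 by DESeq2, and whether males and females differed here was not tested. Slc22a7 was 28.4-fold lower in females (-4.83 ± 0.84, adjusted p = 0.00341) and 12.8-fold lower in males (-3.68 ± 0.64, adjusted p = 0.00642). Without NR-treated Alport female 1 the fold was 73.2, and without NR-treated Alport male 4 it was 25.9. Slc22a4 was lower by 1.34 in females and 1.29 in males on the log2 scale (adjusted p = 0.00027 and 0.00284). In females Slc22a19 (-3.53 ± 0.57, adjusted p = 0.00248) and Slc22a13 (-1.60, adjusted p = 0.0063) were called as well, Slc22a19 at -4.35 without NR-treated Alport female 1. Slc22a12 was the member above control in females, at 0.28 (adjusted p = 0.224), and was at -0.72 in males (adjusted p = 0.0938). Male values for Slc22a13 and Slc22a19 were -0.34 and -1.52, neither called.

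Across the 32 mice some members varied together. These correlations of log2 CPM describe mice that share genotype, sex, treatment and tubule content, and the second value of each pair is computed over deviations from the 8 group means. Slc22a2 and Slc22a6 were the closest pair (Pearson r = 0.949, and 0.942 within groups), followed by Slc22a13 and Slc22a19 (0.892 and 0.854) and by Slc22a7 and Slc22a19 (0.85 and 0.837). The neighbours Slc22a6 and Slc22a8 reached 0.538 over all mice and 0.865 within groups. Slc22a12 reached 0.705 and 0.308 with Slc22a2, 0.67 and 0.585 with Slc22a5 and 0.633 and 0.274 with Slc22a6, but -0.078 and 0.069 with Slc22a7 and 0.124 and 0.037 with Slc22a13. With the mean of the proximal tubule markers, r over the 32 mice was highest for Slc22a5 (0.926) and lowest for Slc22a12 (0.523). Within groups it was again highest for Slc22a5 (0.873) but lowest for Slc22a13 (0.404), with Slc22a12 at 0.419.

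**Figure D5:**
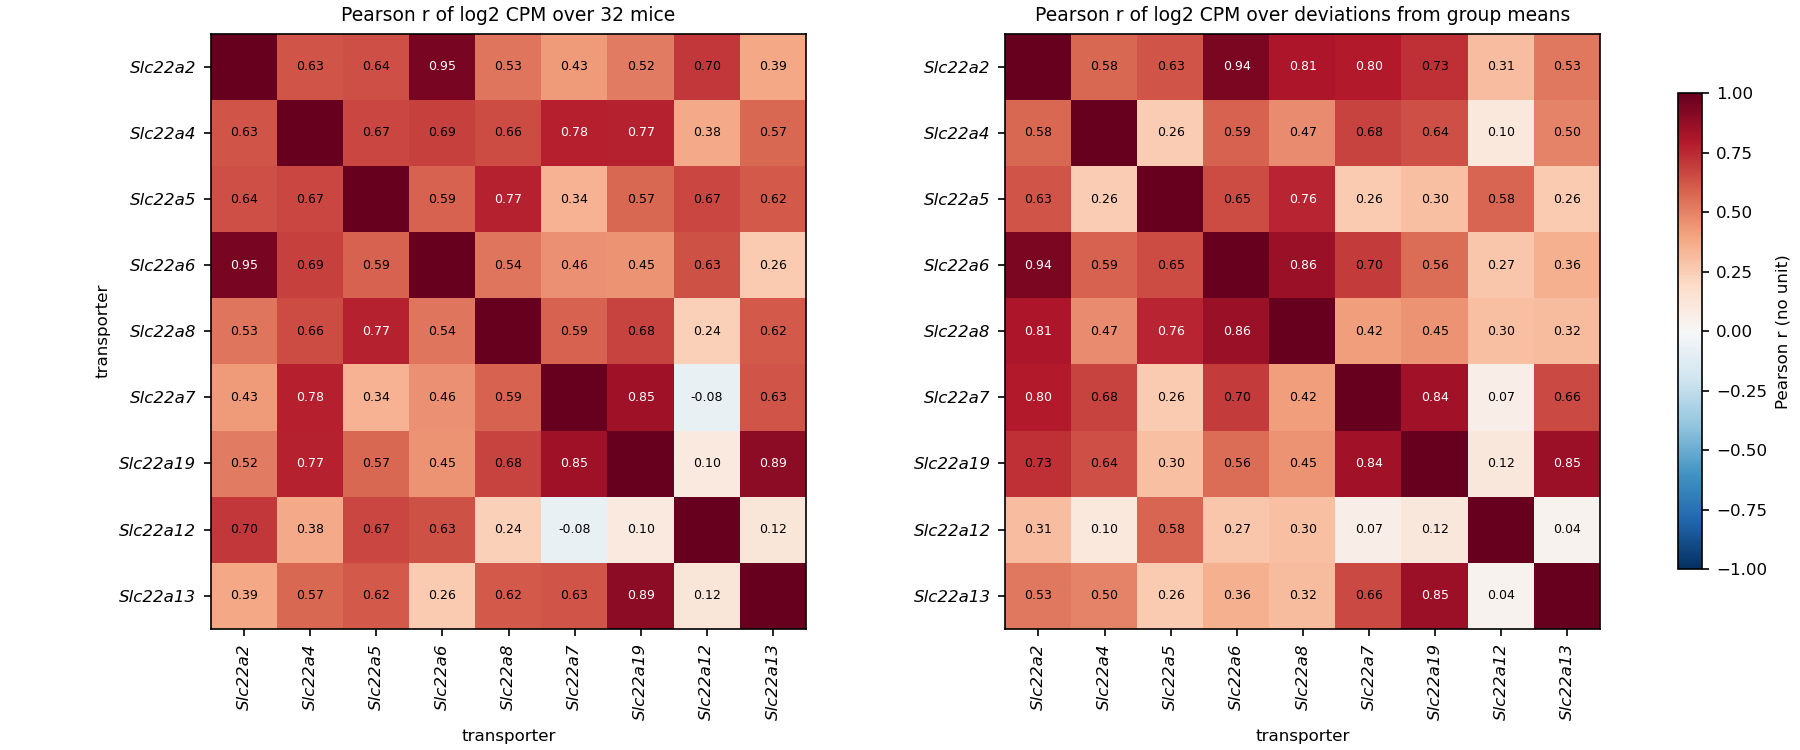
Pearson r between the log2 CPM of each pair of members over 32 mice (left) and over deviations from the 8 group means (right). The pair of Slc22a2 and Slc22a6 is high in both, at 0.949 and 0.942, and the pair of Slc22a7 and Slc22a12 is at -0.078 and 0.069.

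The genes most like each member over the 32 mice, by Pearson r of log2 CPM among all genes that passed the filter, were Slc22a22 (0.961) and Csad (0.955) for Slc22a2, Cmah (0.929) for Slc22a4, and Galm (0.97) for Slc22a5. Slc17a3, a urate and phosphate carrier gene, came first for Slc22a6 (0.962), Sema4g for Slc22a8 (0.945), Atp6v0e2 for Slc22a7 (0.899) and C8a for Slc22a19 (0.946). For Slc22a12 it was Abcg2 (0.952), which encodes an efflux pump for urate, and for Slc22a13 it was Slc23a1 (0.925), which encodes a vitamin C transporter.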

How the data were processed

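Poly(A) RNA of kidney cortex from 32 mice was sequenced, 4 per group, 1 library per mouse. Reads were aligned and processed by the authors with BioJupies (mm10 per the submitters' processing notes). The aligner, annotation and strand setting are not given in the sources used here. The deposited values were raw gene counts, 1 column per mouse, and the authors' log10 values, which equal log10 of CPM + 1 (largest difference 4.44e-16) and were used for that check only. Genes were filtered per comparison with filterByExpr (minimum count 10), scaled by TMM and tested with edgeR 4.0.16 quasi-likelihood (R 4.3.3), with Benjamini-Hochberg adjusted p under 0.05 called. The two-sided tests used the groups compared only. CPM used TMM-scaled library sizes, and log2 CPM a prior count of 2. Locations came from GENCODE M21 and promoters from RefSeq. Alternatives were DESeq2 1.42.0, limma-voom (limma 3.58.1), other scalings and filters, a replicate block and leaving out mice. The rule for named genes took the 9 members, up to 4 genes of each list with the smallest p in a comparison, and the 2 genes most like each member. In simulated data for the male genotype comparison, 83 of 100 genes changed 2-fold and 96 of 100 changed 4-fold were recovered with 13 false calls. The changed genes were a random draw from all genes that passed the filter, at any level. Members and lists were chosen with earlier results of these data known. The 48 within-group pairs of mice differed beyond sampling noise (chi-square per degree of freedom at least 7.96).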

Additional observations from a re-analysis of the deposited data

Results flagged for a closer look

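Of the 72 sets of 4 mice examined (9 members in 8 groups, log2 CPM), 5 held a mouse far from the other 3 by Dixon's criterion, and chance flags about 1 in 20 such sets. Slc22a13 accounted for 3 of them. Vehicle-treated Alport female 2 was at 6.98 with the nearest mouse at 6.16, NR-treated control female 2 was at 7.53 with the nearest at 7.44, and vehicle-treated Alport male 2 was at 4.89 with the nearest at 5.76. Slc22a12 was low in vehicle-treated Alport male 3, at 8.95 with the nearest at 9.56, and Slc22a5 was high in vehicle-treated control male 3, at 8.88 with the nearest at 8.67.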

How the results depend on the processing

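With 4 mice per group, several counts of called members changed with the setting, and the cause was not tested. Leaving out 1 mouse gave 0 to 2 members for NR in control males, 0 to 1 for NR in Alport females, 2 to 4 for NR in control females, 2 to 4 for NR-treated Alport against vehicle-treated control males, 1 to 3 for the sexes in Alport mice, 0 to 2 for the interaction of NR and sex in controls and 0 to 2 for genotype in males scaled to tubule markers. In 1 fit of all 32 mice the counts were 8 for NR-treated Alport against vehicle-treated control males, 2 for NR in Alport females, 0 for NR in control females, 3 for the sexes in controls, 1 for the sexes in Alport mice, 6 for genotype in each sex and 6 for NR-treated Alport against vehicle-treated control females. DESeq2 called 4 members in the first of these and 1 in the interaction of NR and sex in controls, limma-voom called 1 in that interaction, and summed marker CPM gave 2 in the scaled male comparison. Using NR-treated control males 2 and 4 only gave 1 member for NR in control males, with Slc22a2 at 0.10 and Slc22a19 at 0.39. Without 1 mouse the log2 fold changes that crossed 0 ran, for NR, from -0.99 to 0.16 (Slc22a19, Alport males), -0.63 to 0.26 (Slc22a19, control males) and -0.09 to 0.00 (Slc22a12, control males), from -0.60 to 0.12 for Slc22a13 in NR-treated Alport against vehicle-treated control males, and for sex from -0.08 to 0.04 (Slc22a5, controls, 0.01 in the fit of all mice) and -0.69 to 0.43 (Slc22a7, Alport). For Slc22a7 the interaction of NR and genotype in males ran from -0.89 to 1.22 and that of NR and sex in Alport mice from -1.65 to 0.75.

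Mice with the same replicate number showed no strong pairing. Over 40 same-numbered pairs, which reuse mice, the correlation of deviations ran from -0.167 to 0.261, and 5 exceeded 0.1. Whether the numbers follow litters cannot be told from this check. With the replicate number as a block, 9 members were called for genotype in each sex, 0 for NR in Alport females, 2 and 3 for NR in control males and females, and 1 in the scaled male comparison.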

Other observations

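Other Slc22 genes, among them Slc22a28, Slc22a29 and Slc22a30, which lie on chromosome 19 between Slc22a19 and Slc22a8, had larger log2 differences between the sexes than the members. On vehicle, 12 of 14 tested were called in control mice, against 31.7% of all genes, and 6 of 14 in Alport mice, against 3.84%. Slc22a30 was at 250 to 387 CPM in control males and 9.24 to 15.8 CPM in control females (log2 difference 4.75, male against female, adjusted p = 1.16e-08), and 3.76 in Alport mice. Slc22a28 was higher in males by 3.53 in controls and 3.09 in Alport mice. Slc22a29 went the other way, at 3.55 to 4.05 CPM in males and 50.9 to 87.6 CPM in females (-4.03, and -3.40 in Alport mice). With the Alport genotype Slc22a15 rose in males (1.82, adjusted p = 8.1e-07) and females (1.18), the 1 gene of this list that did so in either sex.

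Some of these genes, and an efflux pump gene, moved on NR. Slc22a30 fell on NR in control females (-0.98, adjusted p = 0.00537) and in Alport females (-1.26, adjusted p = 0.0224), and Slc22a29 rose in control males (1.28, adjusted p = 0.012). Abcc4, which encodes an efflux pump for organic anions at the brush border, rose on NR in control males from 50.6 to 97.4 CPM on vehicle to 159 to 420 CPM (2.12, adjusted p = 0.00766). It also rose in Alport females, from 99.8 to 118 CPM to 220 to 452 CPM (1.49, adjusted p = 0.0147), and in control females, from 156 to 195 CPM to 239 to 385 CPM (0.86, adjusted p = 0.00532). In Alport males it was at 63.7 to 94.6 CPM on vehicle and 125 to 340 CPM on NR, without overlap, and did not pass (1.37, adjusted p = 0.524). Slco4c1, an organic anion carrier gene, rose on NR in control females (1.12, adjusted p = 0.00527).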
